A study of Mus musculus with 96 samples.

Results

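Pancreatic islets of male C57BL/6N mice that had eaten a high-fat diet (HFD, Research Diets D12492, 60% fat on the label) for 12 weeks were compared with islets of mice kept on chow (CD, LabDiet 5001, 13.5% fat) for the same time. The 8 islet libraries labelled with week 12 were taken, 4 of HFD mice and 4 of CD mice, out of 48 islet libraries and 96 libraries of the whole series, which also covers liver and 5 other weeks of diet. The mice were bought at 4 weeks of age and the labels name no engineered allele. The diets differ in maker and ingredients as well as in fat, so that the groups differ in more than fat content. The labels give each mouse its own number and 1 islet library. HFD libraries are named here by mouse as HFD313, HFD315, HFD316 and HFD318, and CD libraries as CD304, CD306, CD307 and CD308. Islets were released with collagenase, separated on a density gradient and picked by hand, and their poly(A) RNA was sequenced.

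An islet is a cluster of endocrine cells. Beta cells secrete insulin, alpha cells glucagon, delta cells somatostatin, and PP cells pancreatic polypeptide, and in the mouse beta cells make up most of the cluster. Islets sit within exocrine tissue, whose acinar cells make digestive enzymes at very high levels, so enzyme transcripts in an islet library come with the isolation. When an animal becomes obese and insulin resistant, beta cells are known to raise their insulin output and to expand in number. Insulin is folded in the endoplasmic reticulum (ER), packed into granules and released when glucose metabolism closes potassium channels. In bulk islets, fewer cells of a type and less RNA per cell cannot be told apart.

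Levels are given in FPKM, the fragments per kilobase of transcript scaled by sequencing depth, as deposited. Differences are log2 fold changes of HFD against CD on the log2(FPKM + 1) scale, with standard errors, and they understate the change of a gene of few FPKM. A gene passed at a Benjamini-Hochberg adjusted p under 0.05 by limma, a linear model fitted to all genes at once, and was a differentially expressed gene (DEG) if it also moved by at least 1 on the log2 scale. Of 11286 genes tested, 4.53% passed, with 246 higher (2.18%) and 265 lower (2.35%) in HFD islets. There were 39 DEGs (0.346%), of which 10 were higher and 29 lower. The number that passed was 817 without CD304 and between 347 and 580 without any other library, and the number of DEGs was 25 without HFD313. Each named gene was also tested in up to 16 alternative fits: 8 with a library left out and 8 with another pseudocount, filter, scaling or variance model. The FPKM of the 4 HFD mice did not overlap with those of the 4 CD mice in 10.4% of the genes tested and in all 39 DEGs.

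**Figure D1:**
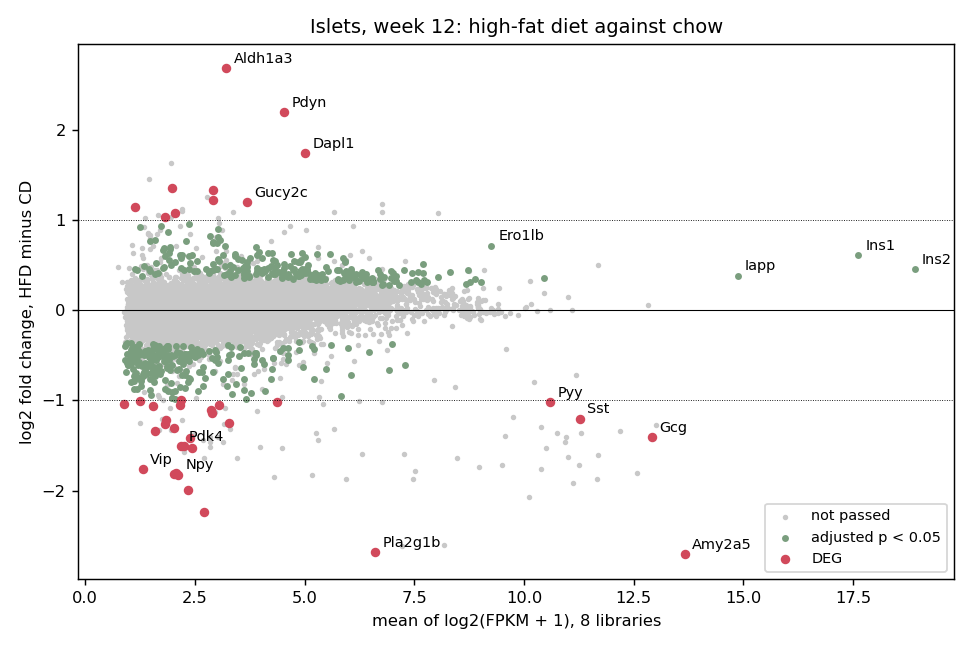
Log2 fold change of HFD against CD (vertical axis) by the mean of log2(FPKM + 1) over the 8 libraries (horizontal axis), 1 point per tested gene. Grey points did not pass, green points passed, and red points are the 39 DEGs. The insulin genes lie at the far right just above 0, while Gcg, Sst and Amy2a5 lie below -1, and Aldh1a3 is the highest point.

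The libraries were alike within groups, with a lowest Pearson correlation of log2(FPKM + 1) of 0.993, and 0.986 was the lowest between groups. Between 11059 and 11447 genes reached 1 FPKM in each library. Ins1 and Ins2 were 53.7% to 59.2% of all FPKM in CD mice and 67.3% to 71.4% in HFD libraries. The sum of FPKM was 1007520 to 1038050 in CD and 1105670 to 1237480 in HFD libraries. These sums move with diet, and the number of genes on either side depends on the scaling. Of the genes that passed, 48.1% were higher with FPKM as deposited, 59.4% with median ratio scaling between libraries, 93.4% with FPKM rescaled to the total without Ins1 and Ins2, and 5.72% with FPKM rescaled to the same sum in every library (equal sums). The median log2 fold change of all genes was 0.0080 as deposited, 0.19 in the rescaling without insulin and -0.17 in the rescaling to equal sums. Of 43 gene lists with a tested member, 24 had a median that changed sign between these 4 scalings. The medians of the beta, alpha, delta, PP and acinar cell lists, the dedifferentiation list, the clock list and the integrated stress response list kept their sign.

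Beta cell genes were higher in HFD islets. Both mouse insulin genes rose, as did Iapp, which encodes the amyloid polypeptide secreted with insulin, Ucn3, a peptide of mature beta cells, and Nkx6-1, a transcription factor of beta cell identity. Of the 10 beta cell markers tested, 5 were higher and none lower, with a median log2 fold change of 0.35 against 0.0080 over all genes. The median of this list was above 0 under all 3 other scalings, at 0.14 in the rescaling to equal sums.

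Ins1 had 163513, 158036, 164194 and 160634 FPKM in CD304, CD306, CD307 and CD308. In HFD313, HFD315, HFD316 and HFD318, Ins1 reached 264805, 244567, 255156 and 223934 FPKM. Every HFD mouse was above every CD mouse, the CD mice lay close together, and the HFD mean was 1.53 times the CD mean. The log2 fold change was 0.61 ± 0.06 (SE, n = 4 per group, adjusted p = 2.1e-07). Ins2 had 394273, 429955, 432155 and 412586 FPKM in the CD mice in the same order, and 619103, 565651, 585873 and 520400 FPKM in the HFD mice. Its groups did not overlap either, and it was higher by 0.46 ± 0.06 on the log2 scale (adjusted p = 1.1e-05). Ins1 and Ins2 are close paralogs, so the split of reads between them is uncertain. Both passed in each alternative, and in the rescaling to equal sums their log2 fold changes were 0.40 and 0.24.

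Iapp had 22599, 26950, 29092 and 26778 FPKM in CD mice and 37011, 30699, 37212 and 32259 FPKM in HFD mice, without overlap. It was higher by 0.38 ± 0.08 (adjusted p = 0.0070), and its adjusted p was 0.053 without CD306 and 0.077 in the rescaling to equal sums. The Ucn3 groups overlapped, with 319 to 437 FPKM in CD mice and 420 to 583 FPKM in HFD mice. Its log2 fold change of 0.44 ± 0.11 (adjusted p = 0.040) did not pass without CD304, CD307, CD308 or HFD316 (highest adjusted p = 0.10). Nkx6-1, whose groups overlapped too (CD mean 92.0 FPKM, HFD mean 121 FPKM), had 0.40 ± 0.10 (adjusted p = 0.016) and did not pass without CD304, CD307, CD308 or HFD316 (highest adjusted p = 0.058). In the rescaling to equal sums, neither passed (adjusted p = 0.080 for Ucn3 and 0.233 for Nkx6-1), so that Ins1 and Ins2 were the 2 of these 5 genes that did. The other 5 beta cell markers did not pass. Slc2a2, the beta cell glucose transporter, had a log2 fold change of -0.03 ± 0.10 (adjusted p = 0.90). For Pdx1 and Mafa, transcription factors that bind insulin promoters, the values were 0.25 ± 0.11 (adjusted p = 0.21) and 0.17 ± 0.24 (adjusted p = 0.79).

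The promoters of Ins1, Iapp and Gcg are shown because these hormone genes moved in opposite directions and are bound by homeodomain factors of islet cells, many of which read the core letters TAAT. Capitals mark TAAT or its reverse complement ATTA in the 250 bases before the RefSeq transcription start (GRCm38.p6). The first start listed for each gene was used and was not checked against other starts. The windows may therefore lie at unlike distances from the start in use in islets. The windows are chr19:52264047-52264296 on the plus strand for Ins1, chr6:142298175-142298424 on the plus strand for Iapp, and chr2:62483654-62483903 on the minus strand for Gcg.
Ins1: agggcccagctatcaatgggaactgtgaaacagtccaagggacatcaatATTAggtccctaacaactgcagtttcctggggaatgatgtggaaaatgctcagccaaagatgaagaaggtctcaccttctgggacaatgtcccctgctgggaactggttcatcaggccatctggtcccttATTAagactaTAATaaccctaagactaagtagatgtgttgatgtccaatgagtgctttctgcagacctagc
Iapp: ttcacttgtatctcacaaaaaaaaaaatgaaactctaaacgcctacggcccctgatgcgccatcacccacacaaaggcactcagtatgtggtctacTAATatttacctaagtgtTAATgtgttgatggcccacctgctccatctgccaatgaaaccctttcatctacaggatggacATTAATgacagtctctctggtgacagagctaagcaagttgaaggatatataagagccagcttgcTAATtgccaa
Gcg: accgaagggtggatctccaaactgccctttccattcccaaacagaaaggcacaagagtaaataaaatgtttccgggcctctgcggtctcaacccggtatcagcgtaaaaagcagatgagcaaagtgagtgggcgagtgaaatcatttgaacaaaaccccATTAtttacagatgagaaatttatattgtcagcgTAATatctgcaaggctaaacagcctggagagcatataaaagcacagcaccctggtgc
There were 3 matches in Ins1, 5 in Iapp, where 2 of them overlap, and 2 in Gcg. At least 1 match was found in 54.9% of the 32851 promoter windows of the same length, and at least 5 in 5.54%. The E-box letters CANNTG, read by factors such as Neurod1 and the same on both strands, occurred 2 times in Ins1, 3 times in Iapp and 3 times in Gcg, and at least once in 66.2% of all windows. Both kinds of match were present in the windows shown of the genes that rose and of the gene that fell.

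Genes of alpha cells fell. Of the 8 tested alpha cell markers, 5 were lower and none higher, among them Gcg, which encodes glucagon, and the transcription factors Irx2 and Irx1. The median log2 fold change of the list was -0.94, and it was between -1.06 and -0.79 in the other scalings. All 5 passed in each alternative. In the rescalings without insulin and to equal sums, 1 further marker passed as higher.

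Gcg had 12041, 12256, 13138 and 13225 FPKM in CD304, CD306, CD307 and CD308, and 4297, 4874, 4158 and 5907 FPKM in HFD313, HFD315, HFD316 and HFD318. The CD mean was 2.63 times the HFD mean, and the groups did not overlap. The log2 fold change was -1.41 ± 0.09 (adjusted p = 8.8e-07). Irx1 had 3.77, 4.66, 3.87 and 4.03 FPKM in CD mice and 1.79, 1.63, 1.71 and 1.73 FPKM in HFD mice, a log2 difference of -0.90 ± 0.11 (adjusted p = 6.3e-06). Irx2 ranged from 3.75 to 5.01 FPKM on chow and from 1.51 to 2.38 FPKM on the HFD (-0.97 ± 0.12, adjusted p = 9.2e-06). Neither gene overlapped between groups. Ttr, Gc and Slc7a2 were the markers that did not pass, with -0.44, 0.65 and -0.25, and Gc was the member with a value above 0. Pou3f4 had 0.03 to 0.33 FPKM and was not tested.

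Delta cell genes were also lower, and of the 2 PP cell markers tested, Pyy passed as lower and Ppy did not pass. All 3 tested delta cell markers fell, with a median of -0.95, and each passed in every alternative. Sst, which encodes somatostatin, had 3711, 3600, 3937 and 3812 FPKM in CD mice and 1464, 1701, 1398 and 2036 FPKM in HFD mice. The groups were well apart, and the log2 fold change was -1.21 ± 0.10 (adjusted p = 5.3e-06). Rbp4, a retinol carrier abundant in delta cells, had -0.95 ± 0.11 (adjusted p = 1.3e-06), and Hhex, a transcription factor that delta cells need, had -0.80 ± 0.13 (adjusted p = 2.3e-04).

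Of the PP cell markers, Pyy, which encodes peptide YY, had 1878, 2319, 2340 and 2269 FPKM in CD mice and 905, 1297, 839 and 1383 FPKM in HFD mice. It fell by 1.02 (SE 0.19, adjusted p = 0.035), and it did not pass without CD306, CD307, CD308, HFD313 or HFD315 (highest adjusted p = 0.12). Ppy, which encodes pancreatic polypeptide, had 2667, 3157, 3423 and 2754 FPKM in CD mice and 1246, 2286, 1429 and 2633 FPKM in HFD mice. HFD318 came close to the lowest CD mouse, and the log2 fold change of -0.72 ± 0.27 did not pass (adjusted p = 0.24).

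**Figure D2:**
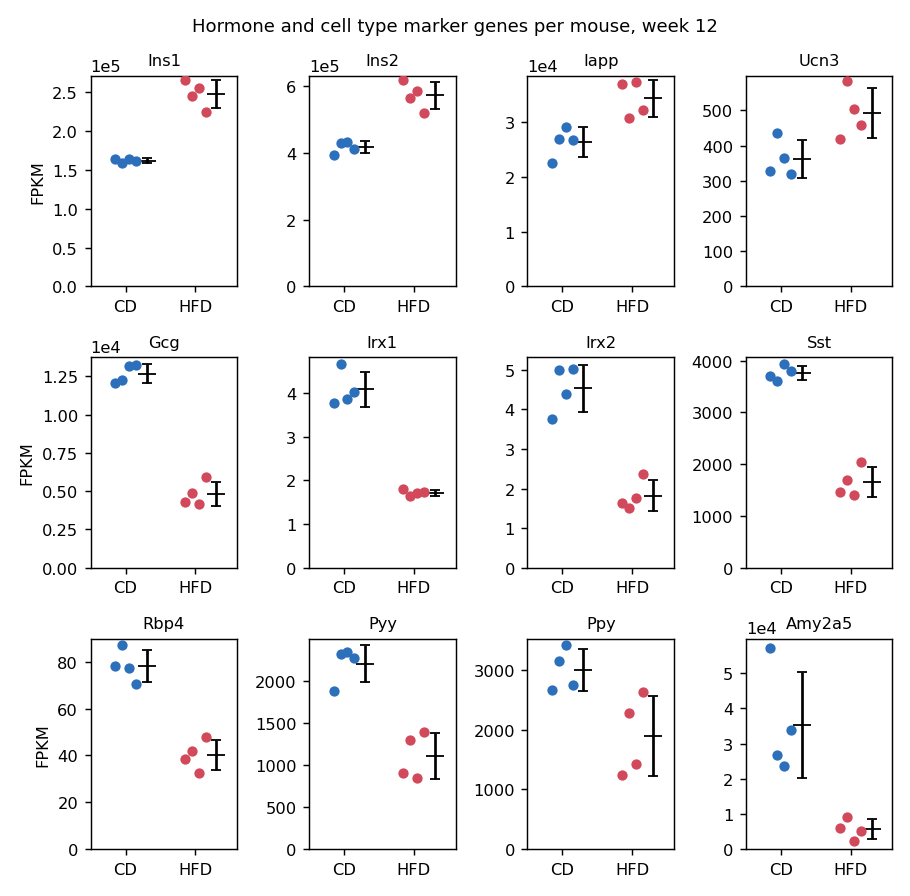
FPKM (vertical axis, from 0) of 12 hormone and marker genes in each of 4 CD (blue) and 4 HFD (red) mice, with the mean and SD of each group in black. Ins1, Ins2 and Iapp lie higher in all HFD mice, Gcg, Irx1, Irx2, Sst, Rbp4 and Pyy lie lower, and Amy2a5 varies widely within groups.

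Transcripts of acinar cells moved with diet too. Of 29 acinar markers tested, 28 had a log2 fold change below 0 and 3 passed, all lower: Amy2a5, Amy2b and Amy1, which encode amylases. The median of the list was -1.53, and 17 of the 29 did not overlap between groups, against 10.4% of all genes. The summed FPKM of the 30 genes ranged from 80889 in CD307 to 192433 in CD304, and from 13238 in HFD316 to 62108 in HFD315. CD304 therefore held the most acinar RNA and HFD316 the least.

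Amy2a5 had 57147, 26632, 23699 and 33842 FPKM in CD mice and 6004, 9074, 2367 and 5187 FPKM in HFD mice. The log2 fold change of -2.71 ± 0.48 (adjusted p = 0.033) did not pass without CD306, CD307, CD308, HFD313 or HFD318 (highest adjusted p = 0.11). In the limma fit of all 48 islet libraries, its diet effect was -1.22, -0.75, -2.71, -2.64, 0.09 and -1.68 at weeks 4, 8, 12, 16, 20 and 24. Amy2a5 in CD islets of week 12 was above that in CD islets of other weeks by 1.64 ± 0.43 (adjusted p = 0.0014). The same contrast of HFD islets gave 0.17 ± 0.43 (adjusted p = 0.76). Such level contrasts carry the collection of each week as well. Amy1, whose transcript was used with Krt19 to judge purity according to the labels, went from 5.79 to 15.7 FPKM in CD to 0.65 to 2.65 FPKM in HFD mice (-1.99 ± 0.36, adjusted p = 0.032), and did not pass without CD306, CD308, HFD313, HFD316 or HFD318 (highest adjusted p = 0.11). The amylase genes are close paralogs, so the split of reads among them is uncertain. Krt19, a keratin of duct cells, had 0.92 to 4.86 FPKM in CD mice and 0.56 to 3.14 FPKM in HFD mice (-0.58 ± 0.45, adjusted p = 0.58). Other enzyme genes had values as far below 0 with wider errors. Ctrb1, a chymotrypsinogen gene and among the 5 genes of highest FPKM, had -1.27 ± 0.53 (adjusted p = 0.30). Prss1 was the acinar marker with a value above 0 (0.14 to 1.51 FPKM in CD mice and 0.75 to 12.4 FPKM in HFD mice).

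Several of the other lower DEGs had their highest CD value in CD304 and their lowest HFD value in HFD316, as the acinar sum did. They were Pla2g1b, which encodes a digestive phospholipase, Tmed11, Serpinb1a, Muc1 and Slc38a5, a glutamine transporter. Pla2g1b had 400, 182, 176 and 287 FPKM in CD mice and 48.6, 70.4, 15.5 and 36.8 FPKM in HFD mice (-2.68 ± 0.52, adjusted p = 0.044), and passed in 1 of the 8 fits with a library left out (highest adjusted p = 0.14). Tmed11 (-1.53 ± 0.21, adjusted p = 0.0021) and Serpinb1a (-1.50 ± 0.22, adjusted p = 0.0052) passed in each alternative. The limma fit of all 48 islet libraries compared weeks. Tmed11 in CD islets of week 12 was above other weeks by 1.05 (adjusted p = 0.0038), and Serpinb1a by 1.12 (adjusted p = 4.01e-04). In HFD islets the same contrast gave 0.0076 and 0.05, and neither passed. Diet effects at weeks 4, 8, 16, 20 and 24 were -0.51, -0.12, -1.76, 0.49 and -0.56 for Tmed11. For Serpinb1a they were 0.03, -0.09, -1.57, 0.18 and -0.72. Of these, only those of week 16 passed. The part of acinar RNA in these results was not tested. The Reg genes, made largely by acinar cells, had 4 of 6 values below 0 and a median of -1.19, and none passed.

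With FPKM as deposited, few markers of other cells passed. None of 10 endothelial, 10 stromal or 5 MHC class II genes passed, with medians of 0.04, -0.01 and 0.21. In the rescaling without insulin 2 endothelial, 4 stromal, 4 MHC class II and 7 of 11 macrophage genes were higher, and in that to equal sums 2 endothelial and 1 stromal gene were lower. The endothelial and stromal medians changed sign between them. Of 11 macrophage genes, C1qa was higher (0.44 ± 0.12, adjusted p = 0.045), but it did not pass in 5 of 8 fits with a library left out (highest adjusted p = 0.12). Muc1 (-1.41 ± 0.28, adjusted p = 0.041) was the 1 of 9 duct markers to pass. It passed in 3 of 8 fits with a library left out (highest adjusted p = 0.135). With median ratio scaling or a pseudocount of 0.1 FPKM, Muc1 did not pass. No B cell, lymph node stroma or T cell marker passed, and of these lists 1, 1 and 0 genes were tested. The library HFD313 had 48.8 FPKM of Alb, the albumin gene, against 3.55 to 13.0 FPKM in the other libraries, and its summed FPKM of red blood cell genes was 901, against 148 to 300.1 in CD mice. None of 5 hepatocyte and 5 red blood cell genes passed.

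The gene that rose most was Aldh1a3, which encodes a retinaldehyde dehydrogenase and is known as a marker of beta cells that lose their mature state. It lies at chr7:66390892-66427477 on the minus strand in the deposited annotation. Aldh1a3 had 1.99, 2.34, 3.44 and 3.13 FPKM in CD304, CD306, CD307 and CD308, and 24.7, 16.2, 24.9 and 25.8 FPKM in HFD313, HFD315, HFD316 and HFD318. The HFD mean was 8.41 times the CD mean, and even HFD315, which lay below the other HFD mice, was far above CD. The log2 fold change was 2.68 ± 0.15 (adjusted p = 1.9e-08), and it passed in each alternative.

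Pdyn, which encodes the opioid precursor prodynorphin, had 17.4, 7.26, 6.86 and 10.5 FPKM in CD mice and 41.9, 63.4, 54.7 and 37.9 FPKM in HFD mice. The log2 fold change of 2.19 ± 0.32 (adjusted p = 0.016) did not pass without CD308 or HFD316 (highest adjusted p = 0.059). Dapl1, a gene linked to epithelial differentiation, had 22.1, 12.6, 18.9 and 14.4 FPKM in CD mice and 71.3, 47.9, 62.0 and 52.8 FPKM in HFD mice (1.74 ± 0.18, adjusted p = 4.2e-04). For both genes the lowest HFD mouse was above the highest CD mouse.

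The other 7 higher DEGs were of few FPKM. P3h2, a collagen prolyl hydroxylase, had 1.05 to 2.20 FPKM in CD mice and 4.14 to 7.47 FPKM in HFD mice (1.35 ± 0.17, adjusted p = 2.1e-04). Rasl10b, a Ras-like GTPase, had 2.85 to 4.42 and 7.77 to 15.7 FPKM (1.33 ± 0.21, adjusted p = 0.0061). Gucy2c, a receptor guanylyl cyclase known for binding guanylin in the gut, had 7.02 to 8.23 and 15.7 to 24.0 FPKM (1.20 ± 0.12, adjusted p = 4.3e-07). These 3 were followed by Slc35f4 (1.15 ± 0.14), Me3, the mitochondrial malic enzyme (1.08 ± 0.16), and Aass, an enzyme of lysine breakdown (1.03 ± 0.14). All of these passed in each alternative. Nfil3, a repressor of the circadian output, had 2.63 to 4.89 FPKM in CD mice and 7.53 to 15.2 FPKM in HFD mice (1.22 ± 0.26, adjusted p = 0.041), and did not pass without CD304, CD306, CD307 or HFD316 (highest adjusted p = 0.12).

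**Figure D3:**
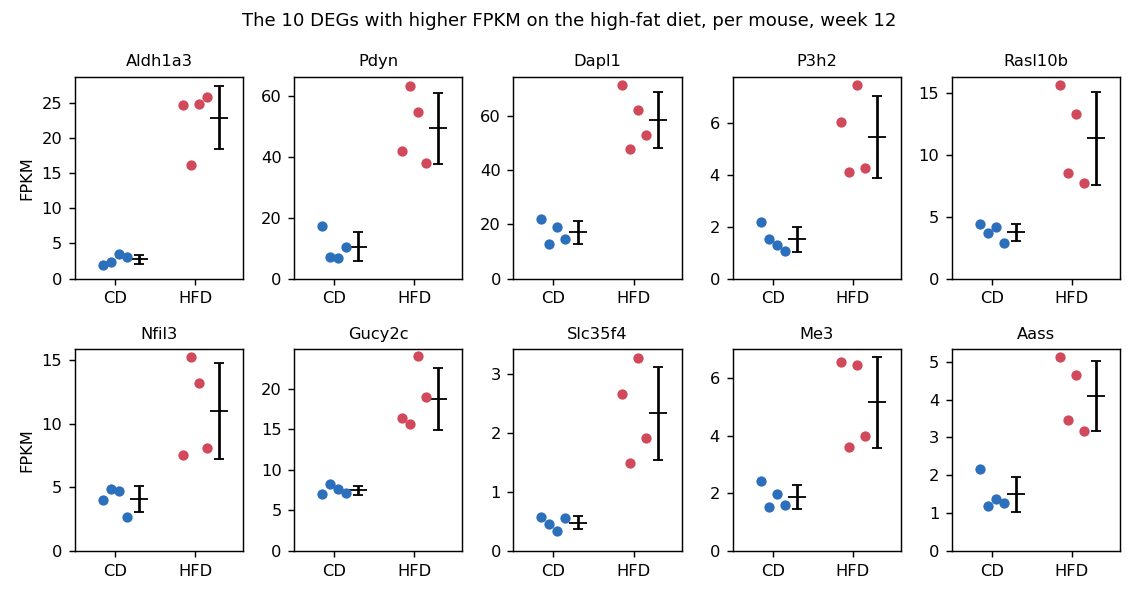
FPKM (vertical axis, from 0) of the 10 DEGs with higher values in HFD islets, in each of 4 CD (blue) and 4 HFD (red) mice, with the mean and SD of each group in black. No HFD mouse overlaps with a CD mouse in any panel, and HFD315 is the low HFD mouse for Aldh1a3.

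Among the lower DEGs were neuropeptides. Npy, which encodes neuropeptide Y, had 9.25, 9.92, 5.54 and 5.15 FPKM in CD mice and 0.49, 0.87, 2.80 and 1.70 FPKM in HFD mice (-1.82 ± 0.36, adjusted p = 0.044). Gal, which encodes galanin, had 10.5, 4.32, 4.79 and 8.69 and then 1.09, 1.84, 1.08 and 0.81 FPKM (-1.82 ± 0.29, adjusted p = 0.017). Vip, which encodes vasoactive intestinal peptide, had 2.10 to 5.38 FPKM in CD mice and 0.02 to 0.80 FPKM in HFD mice (-1.76 ± 0.29, adjusted p = 0.020). All 3 were of few FPKM. Npy passed in 1, Gal in 4 and Vip in 5 of the 8 fits with a library left out, with highest adjusted p of 0.12, 0.074 and 0.073. Of the neuropeptide Y family and its receptors, 3 of 7 genes were tested and Npy and Pyy fell.

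Potassium channel and surface protein genes were also among them. Kcnj12, an inward rectifier, had 2.79 to 5.16 FPKM in CD mice and 0.42 to 1.39 FPKM in HFD mice (-1.33 ± 0.17, adjusted p = 2.0e-04), and Kcnk3, a background potassium channel, had 3.73 to 6.50 and 1.51 to 2.95 FPKM (-1.05 ± 0.15, adjusted p = 2.8e-04). Cd9, a tetraspanin, fell from 8.70 to 12.6 FPKM to 3.82 to 5.68 FPKM (-1.05 ± 0.13, adjusted p = 5.3e-06). Fev, a transcription factor of endocrine progenitors and of serotonin neurons, had -1.0 ± 0.12 (adjusted p = 5.3e-06), and Reln, which encodes the secreted glycoprotein reelin, had -1.04 ± 0.17 (adjusted p = 0.0032). Mfap2 (-1.31 ± 0.13), Vwde (-1.21 ± 0.13), Eef1a2 (-1.14 ± 0.12), Hpse (-1.07 ± 0.13), Gstm2 (-1.01 ± 0.16) and Hhatl (-1.0 ± 0.11) passed in each alternative. Sostdc1, a secreted antagonist of bone morphogenetic proteins, had -1.26 ± 0.27 (adjusted p = 0.045) and passed in 3 of 8 fits with a library left out (highest adjusted p = 0.14).

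Of 22 tested endocrine transcription factors, Nkx6-1 rose and 4 fell, while over all genes 2.18% were higher and 2.35% lower. The median of the list was -0.05 and turned to 0.14 in the rescaling without insulin. Of the 5 factors that passed, Nkx6-1 and Neurog3 did not pass in each alternative. Among the lower ones were Gata6 (-0.68 ± 0.12, adjusted p = 5.3e-04) and Neurog3, the trigger of endocrine fate, which had 3.20 to 4.38 FPKM in CD mice and 1.36 to 3.24 FPKM in HFD mice (-0.66 ± 0.15, adjusted p = 0.011). Pax6, Neurod1, Nkx2-2 and Isl1, which are shared by endocrine cells, had log2 fold changes of -0.01, -0.03, 0.13 and -0.14, and none passed.

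Of 16 tested genes that mark dedifferentiated beta cells or are kept off in mature ones, Aldh1a3 rose and 6 fell, with a median of -0.39. The shares over all genes were 2.18% higher and 2.35% lower. The lower genes were Neurog3, Oat, an ornithine aminotransferase, Fgfr1, Acot7, Hk1, a hexokinase of high glucose affinity, and Cd81, a tetraspanin. Oat had 3.93 to 5.25 FPKM in CD mice and 2.42 to 3.25 FPKM in HFD mice (-0.60 ± 0.12, adjusted p = 0.0024). Aldh1a3 and Oat passed in each alternative. Hk1 (-0.44 ± 0.12, adjusted p = 0.024) passed in 4 of 8 fits with a library left out. Acot7 passed in 2, Cd81 in 3, Fgfr1 in 5 and Neurog3 in all 8 of these fits. Ldha, which mature beta cells hold low, had -0.33 ± 0.13 (adjusted p = 0.17).

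The granule list held genes of several cell types. Of 24 genes, Ins1, Ins2, Ptprn, Iapp and Pcsk1n were higher, and Npy, Gcg, Sst and Pyy were lower, with a median of 0.09 as deposited and -0.12 in the rescaling to equal sums. Ptprn, a membrane protein of dense-core granules, had 158, 150, 145 and 146 FPKM in CD mice and 193.6, 211.5, 197.4 and 191.7 FPKM in HFD mice, without overlap (0.41 ± 0.08, adjusted p = 0.0015). It did not pass in that rescaling, with an adjusted p of 0.175. Chga, which encodes chromogranin A, had 0.06 ± 0.13 (adjusted p = 0.87).

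**Figure D4:**
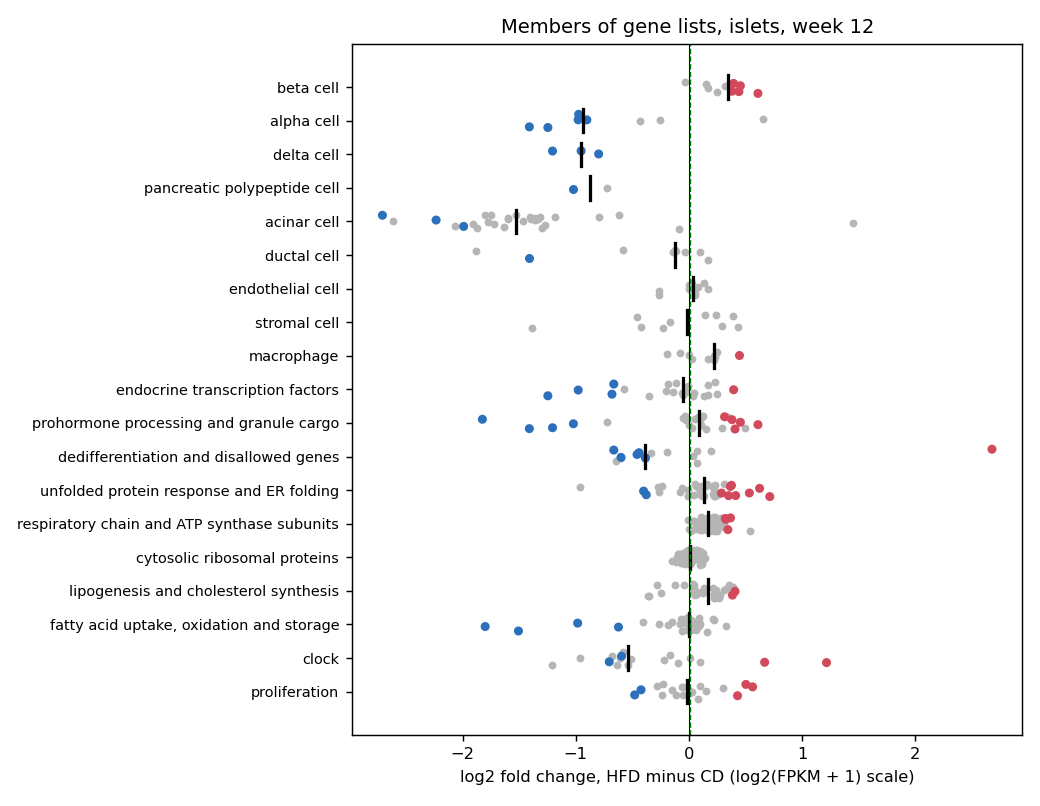
Log2 fold change of HFD against CD (horizontal axis) of the tested members of 19 gene lists (rows). Each point is a gene, coloured red or blue if it passed as higher or lower and grey otherwise, black bars are list medians, and the green dashed line is the median of all genes. Alpha, delta, PP and acinar cell lists lie left of 0, and the beta cell list lies right of 0.

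Genes of protein folding in the ER rose more than they fell with FPKM as deposited. Of 39 tested, 8 were higher and 2 lower, with a median of 0.13. The count was 3 higher and 5 lower, with a median of -0.08, in the rescaling to equal sums, and 25 higher and none lower in that without insulin, so that the direction of this list depended on the scaling. Ero1lb, the ER oxidase of beta cells, which drives disulfide bond formation in proinsulin, had 503, 476, 474 and 448 FPKM in CD mice and 636, 791, 848 and 870 FPKM in HFD mice. It rose by 0.71 ± 0.08 (adjusted p = 5.4e-06). Creld2, which encodes an ER disulfide isomerase, had 32.4 to 44.1 FPKM in CD mice and 47.0 to 67.6 FPKM in HFD mice (0.62 ± 0.11, adjusted p = 8.2e-04). Ero1lb and Creld2 passed in each alternative. Sdf2l1, Pdia6, Atf6b, Sec61b, Spcs1 and Calr, higher by 0.29 to 0.53, did not. The lower genes were Sel1l and Herpud1, members of the machinery that removes misfolded proteins (-0.40 ± 0.10 and -0.38 ± 0.10). Sel1l passed in 6 and Herpud1 in 5 of 8 fits with a library left out, and neither passed in the rescaling without insulin. Hspa5, the main ER chaperone, had -0.01 ± 0.09, and Xbp1, a transcription factor of the unfolded protein response, had 0.12 ± 0.08, and neither passed. Of 16 tested genes of the integrated stress response, Vldlr was lower (-0.56 ± 0.12, adjusted p = 0.0058), and Atf4 and Ddit3 had -0.28 ± 0.23 and -0.23 ± 0.29.

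Genes of the respiratory chain lay slightly above 0 with FPKM as deposited and at -0.03 in the rescaling to equal sums. Over all genes, 4.53% passed, with 2.18% higher and 2.35% lower, against which the counts of these lists are to be read. Of 75 respiratory chain genes tested, 74 were above 0, the median was 0.17, and 4 passed, all higher: Ndufc2, Ndufv3, Ndufa3 and Ndufa1 (0.32 to 0.37). None of these 4 passed in that rescaling. Mitochondrial ribosomal proteins had 2 of 76 higher, Mrps36 and Mrps12, and a median of 0.13 that turned to -0.07 in the same rescaling. Cytosolic ribosomal proteins had a median of 0.01 with none of 82 passing, but 44 were higher in the rescaling without insulin and 9 lower in that to equal sums, where the median was -0.20. Of 37 proteasome genes Psmb9 was lower (-0.49 ± 0.13), and of 23 genes of pyruvate dehydrogenase and the citrate cycle Me3 was higher.

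Genes of lipid use moved in part, and over all genes 2.18% were higher and 2.35% lower with FPKM as deposited. Of 32 tested genes of fatty acid uptake, oxidation and storage, 4 fell and none rose, with a median of -0.0017 that turned to 0.17 in the rescaling without insulin, where 5 rose and 4 fell. Pdk4, a kinase that shuts pyruvate dehydrogenase and is known to follow fatty acid supply, had 5.21, 6.41, 6.96 and 8.45 FPKM in CD mice and 0.81, 1.8, 1.99 and 2.51 FPKM in HFD mice (-1.51 ± 0.19, adjusted p = 7.1e-04). Lpl, lipoprotein lipase, fell by 0.98 (SE 0.14, adjusted p = 2.4e-04), and Plin3, a lipid droplet protein, by 0.62 (SE 0.12, adjusted p = 0.0011). Both passed in each alternative. Of 30 tested genes of lipid and cholesterol synthesis, Dhcr7 (0.41 ± 0.11) and Srebf1 (0.38 ± 0.10) rose. With a library left out, Dhcr7 passed in 4 and Srebf1 in 6 of 8 fits (highest adjusted p = 0.075 and 0.069). The median of the list was 0.17, and it was -0.03 in the rescaling to equal sums, where 4 genes were lower and none higher. In the rescaling without insulin 18 of 29 were higher and none lower, and with median ratio scaling 6 were higher.

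Genes of glucose metabolism and secretion are given with FPKM as deposited, and their direction depended on the scaling. Of 26 tested genes of glucose uptake and glycolysis, Fbp1, a gluconeogenic enzyme (-0.56 ± 0.12, adjusted p = 0.0058), and Hk1 were lower, with a median of 0.02. Of 20 tested channel genes, Kcnq1 (-0.73 ± 0.12, adjusted p = 2.1e-04) and Itpr1 (-0.71 ± 0.13, adjusted p = 7.1e-04), a calcium release channel of the ER, were lower, and both passed in each alternative. Kcnj11 and Abcc8, which form the potassium channel that triggers secretion, had 0.09 and 0.21, and neither passed. Of 25 tested exocytosis genes, Syt5 was higher (0.54 ± 0.12) and Stx1a lower (-0.40 ± 0.12). Neither passed in each alternative. With a library left out, Syt5 passed in all 8 fits and Stx1a in 2 of 8 (highest adjusted p = 0.16). Of 21 receptors, Sstr2, a somatostatin receptor (-0.79 ± 0.12, adjusted p = 6.8e-05), and Ffar4, a fatty acid receptor found in delta cells (-0.69 ± 0.13, adjusted p = 8.5e-04), were lower, while Glp1r had 0.27 ± 0.11 (adjusted p = 0.18). Of 24 genes of insulin signaling, Grb10, an adaptor that dampens it, was lower (6.37 to 8.84 FPKM in CD mice and 2.58 to 3.90 FPKM in HFD mice, -0.90 ± 0.13, adjusted p = 3.6e-05). Over all genes 4.53% passed. In the rescaling without insulin 10 genes of the glucose list were higher and 2 lower, 7 and 2 of the channels, 10 and 0 of the exocytosis genes, 6 and 2 of the receptors, and 3 and 1 of insulin signaling. In the rescaling to equal sums the counts were 0 and 6, 0 and 6, 0 and 5, 1 and 4, and 0 and 5. All 5 medians were above 0 in the former and below 0 in the latter.

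The counts for cell division genes depended on the filter, which 20 of 38 genes reached. Of these 20, E2f1, a cell cycle transcription factor (0.56 ± 0.11, adjusted p = 0.0027), Cdkn2c (0.50 ± 0.13) and Ccne1 (0.43 ± 0.12) were higher, and Mcm6, a replication helicase subunit (-0.48 ± 0.12), and Cdkn1c, an inhibitor of division (-0.42 ± 0.11), were lower, with a median of -0.02 that turned to 0.16 in the rescaling without insulin. Of these 5 genes, none passed in each alternative. With no filter on low FPKM, where all 38 members were tested, 1 was higher and 8 were lower, with a median of -0.115. Mki67, the usual marker of dividing cells, had 0.05 to 0.18 FPKM and was not tested. Of 8 tested genes known from the islets of pregnant mice, Ddc, which makes serotonin and dopamine, was higher (0.51 ± 0.09, adjusted p = 0.0014).

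Clock genes lay below 0 on the whole, with a median of -0.54 over 17 tested genes, of which 13 were below 0, and in the other scalings the median was between -0.71 and -0.36. Nfil3 and Arntl, an activator of the clock (0.67 ± 0.15, adjusted p = 0.017), rose, and Hlf (-0.70 ± 0.16, adjusted p = 0.021) and Nr1d2, a repressor (-0.59 ± 0.14, adjusted p = 0.019), fell. None of these 4 passed in each alternative. The time of day of collection is not given in the sources used here. Of 22 antioxidant genes Gpx3 (-0.61 ± 0.08, adjusted p = 2.5e-05), a secreted glutathione peroxidase, and Gstm1 were lower. Klf4 of 14 immediate early, Ifit3 of 16 interferon-stimulated and Mmp14 of 15 matrix genes were lower (-0.49, -0.49 and -0.50). None of Gstm1, Klf4, Ifit3 and Mmp14 passed in each alternative, and over all genes 2.35% were lower. The medians of the antioxidant, immediate early, interferon and matrix lists were above 0 in the rescaling without insulin and below 0 in that to equal sums.

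Of 23 tested genes that the study named as key islet genes, 12 were higher and none lower, with a median of 0.43, and 7 of the 12 passed in each alternative. The study chose this list on these samples, so the count is not independent evidence of its direction. Besides P3h2 and Slc35f4, Cxcr4, a chemokine receptor, had 1.1 to 1.93 FPKM in CD mice and 3.22 to 4.05 FPKM in HFD mice (0.94 ± 0.12, adjusted p = 1.1e-05). Of the 3 genes of the Cxcl12 axis Cxcr4 alone passed, and Cxcl12, its ligand, had 0.98 to 2.81 and 0.77 to 1.29 FPKM (-0.60 ± 0.20, adjusted p = 0.15). Lmo1, a transcription cofactor, had 0.95 ± 0.15 (adjusted p = 3.0e-04), and Cpne4 had 0.77 ± 0.13 (adjusted p = 4.6e-04).

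The diet effect at week 12 was compared with that of the other weeks in 1 fit of all 48 islet libraries. Against the mean of the 5 other weeks, 3 of 12378 genes passed (0.0242%), with 920 at an unadjusted p under 0.05. The count was 1294, 1278 of them with a higher effect, in the rescaling without insulin, 5 with median ratio scaling, 12 without CD306, 9 without CD304, 6 without HFD313, and 1 without CD308 or HFD316. Against week 8, 233 passed (1.88%), 194 of them with a higher and 39 with a lower diet effect at week 12, and with median ratio scaling 50 passed, 23 with a higher and 27 with a lower effect. In the rescaling without insulin 2817 passed, 2744 of them with a higher effect. The week 8 count was 51 without CD308 and 453 without CD306. Against week 16, 1 passed (0.00808%), with 290 at an unadjusted p under 0.05. Weeks were collected apart, so week and collection cannot be told apart. Between week 12 and the other weeks, 53.0% of genes passed in CD islets and 54.3% in HFD islets. Diet effects were therefore compared, and levels between weeks are given for some genes beside them.

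Gls2, which encodes glutaminase of liver type, had 6.56, 4.44, 4.34 and 4.18 FPKM in CD mice and 2.55, 2.17, 1.24 and 1.95 FPKM in HFD mice at week 12. Its diet effect of -0.98 at week 12 was below the mean of the other weeks by 1.12 ± 0.18 (adjusted p = 0.0024). CD islets of week 12 were higher by 1.02 ± 0.13 than CD islets of other weeks, and HFD islets had -0.10 ± 0.13. Level contrasts of this kind carry the collection of each week as well. The difference in the diet effect on Gls2 passed with a pseudocount of 0.1 FPKM, with no filter, with median ratio scaling and without each of the 8 libraries. Pdyn had a diet effect higher than the mean of other weeks by 2.19 ± 0.41 (adjusted p = 0.020). HFD islets of week 12 were higher by 1.41 ± 0.29 than HFD islets of other weeks. CD islets of week 12 had -0.78 ± 0.29 against CD islets of other weeks (adjusted p = 0.022). The difference in the diet effect on Pdyn did not pass without CD307, CD308, HFD315 or HFD316. Gstp1, a glutathione transferase, had 151 FPKM in CD mice and 96.3 FPKM in HFD islets on average, and its effect was lower by 0.54 ± 0.10 (adjusted p = 0.020). It did not pass without CD308 or HFD316 or with median ratio scaling. The next 7 genes by adjusted p, at 0.087 each, were Chst2, Stk16, Fam20a, Ptprn, Pigl, Rab3d and Abcb9.

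For the hormone genes the difference from other weeks did not pass. In the same fit, the log2 diet effect on Gcg was -0.15, -0.58, -1.41, -2.25, -2.07 and -2.93 at weeks 4, 8, 12, 16, 20 and 24. On Sst it was -0.22, -0.71, -1.21, -2.01, -2.16 and -2.66, and on Ins1 0.01, 0.19, 0.61, 0.40, 0.17 and 0.02. The effect on Gcg and Sst was below 0 at each week, and that on Ins1 had its highest value at week 12. The diet effect on Gcg was higher than the mean of other weeks by 0.19 ± 0.26 (adjusted p = 0.95), and that on Sst by 0.35 ± 0.25 (adjusted p = 0.85). The Ins1 effect was higher by 0.45 ± 0.11 and missed the threshold (adjusted p = 0.089), and that of Aldh1a3 by 0.64 ± 0.39 (adjusted p = 0.79). Against week 8, Ero1lb had a diet effect higher by 0.96 ± 0.19 (adjusted p = 0.0084), Srebf1 by 0.68 ± 0.13 (adjusted p = 0.0071) and Ucn3 by 0.60 ± 0.14 (adjusted p = 0.021), and Pdk4 had one lower by 1.39 ± 0.34 (adjusted p = 0.025). The median difference between weeks 12 and 8 over all genes was 0.10, relative to which these values are larger. The gene that passed against week 16 was Stxbp5l (0.88 ± 0.16, adjusted p = 0.038), which was named after its value was seen and did not pass without any 1 of the 8 libraries.

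**Figure D5:**
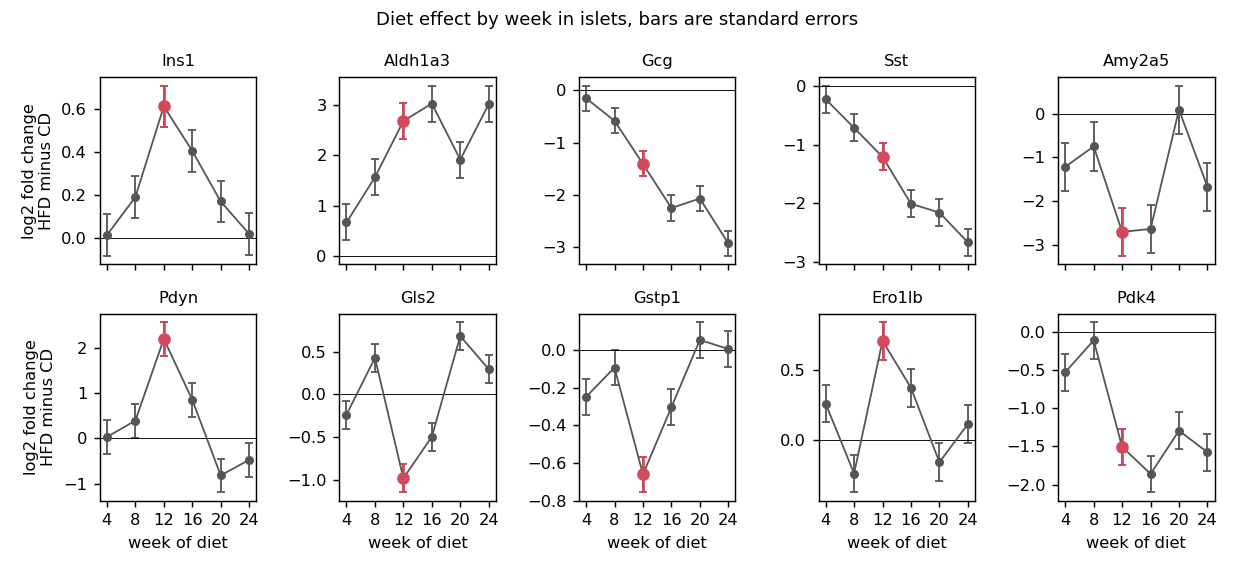
Log2 fold change of HFD against CD in islets (vertical axis) by week of diet (horizontal axis) for 10 genes, from 1 fit of 48 libraries, with standard errors and week 12 in red. Ins1, Pdyn and Ero1lb have their highest diet effect at week 12, Gls2 and Gstp1 their lowest, and the effects of Gcg and Sst are further below 0 at week 16 than at week 12.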

How the data were processed

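Poly(A) RNA of hand-picked islets was sequenced on the BGISEQ-500. The authors deposited FPKM, with 2 decimals and no counts, in 1 table of 21990 genes, of which 20155 held values. The submitters' processing notes name the build GRCm38.p5, HISAT2 2.0.4, Bowtie2 2.2.5, RSEM 1.1.12 and DESeq2, with no role or order. The table also holds the authors' fold changes and p-values by DEGseq, group averages and module columns, which were not used. Depth cannot be read from FPKM, so no counting error is given. In 27 rows the symbol had been turned into a date and was taken from RefSeq.

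Groups came from the labels. A gene entered the test when 4 or more of the 8 libraries reached 1 FPKM. Tests were run with limma 3.58.1 (trend and robust, R 4.3.3) on log2(FPKM + 1), and p-values were adjusted by Benjamini-Hochberg over all genes tested. P-values measure the spread between mice, 4 per diet. Weeks were compared in 1 fit of 12 groups and 48 libraries. The fit was tested on simulated data. Named genes were the DEGs, the members of the gene lists, the 10 genes of lowest adjusted p in the contrast with other weeks and the 5 genes of highest mean FPKM. The comparison, the lists and their members were chosen with earlier results of these data known. Some genes are counted but not reported here by name. Alternatives were a pseudocount of 0.1 FPKM, no filter or one of 5 FPKM, median ratio scaling, FPKM rescaled without Ins1 and Ins2, all groups in 1 fit, limma without trend and robust, and each library left out. FPKM rescaled to equal sums was added after the data were seen. Promoters were taken from RefSeq and figures were drawn with matplotlib 3.10.9.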

Additional observations from a re-analysis of the deposited data

Results flagged for a closer look

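In 10 of 228 sets of 4 mice tested, 1 mouse lay far from the other 3 by Dixon's criterion, where chance gives about 1 in 20. Among HFD mice, HFD315 had 16.18 FPKM of Aldh1a3 against 24.74 to 25.82 in the others, and it was still above all CD mice. HFD318 had 7.88 FPKM of E2f1 against 9.19 to 9.29, and 2.8 FPKM of Fev against 1.98 to 2.08. HFD313 had 18.46 FPKM of Mrps36 against 20.63 to 21.07. Among CD mice, CD304 was low for 4 genes, with 2.18 FPKM of Hpse against 3.53 to 3.73, 9.04 FPKM of Itpr1 against 11.73 to 12.11, 1878 FPKM of Pyy against 2269 to 2340, and 3.54 FPKM of Stx1a against 4.58 to 4.72. CD306 had 3.62 FPKM of Ffar4 against 2.92 to 3, and CD307 had 24.14 FPKM of Gstm2 against 29.67 to 30.42.

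The diet effect at week 12 differed from the mean of the other weeks for Gls2 by -1.118 (limma, adjusted p = 0.00244), for Gstp1 by -0.5421 (adjusted p = 0.0199) and for Pdyn by 2.193 (adjusted p = 0.0199). Against week 8, it was lower for Amy1 by a log2 value of -1.636 (adjusted p = 0.0409), for Pdk4 by -1.39 (adjusted p = 0.0253) and for Sostdc1 by -1.35 (adjusted p = 0.0379). It was higher for Ero1lb by 0.9608 (adjusted p = 0.00845), P3h2 by 0.7512 (adjusted p = 0.0179), Srebf1 by 0.6818 (adjusted p = 0.0071), Ucn3 by 0.5987 (adjusted p = 0.021), Ddc by 0.5488 (adjusted p = 0.0252), Ptprn by 0.508 (adjusted p = 0.0291) and Ndufv3 by 0.3888 (adjusted p = 0.0497).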

How the results depend on the processing

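Of the named genes that passed, 52 passed in every alternative, 62 missed the threshold in at least 1 and none changed sign. Of the 39 DEGs, 25 passed in every alternative. The genes that passed numbered 273 with the filter of 5 FPKM, where 7542 genes were tested, 849 with median ratio scaling, 3334 without Ins1 and Ins2 in the total, 1219 with all groups in 1 fit and 1504 with FPKM rescaled to equal sums, and 347 to 817 with a library left out. DEGs numbered 94 with the pseudocount of 0.1 FPKM, 22 with the filter of 5 FPKM, 85 with all groups in 1 fit, 89 without trend and robust, 71 in the rescaling to equal sums, and 25 to 46 with a library left out. Against the other weeks, 5 genes passed with no filter, 5 with median ratio scaling, 1294 without insulin in the total, and 1 to 12 with a library left out. Against week 8, the counts were 50 with median ratio scaling, 2817 without insulin, and 51 to 453 with a library left out. Against week 16, 0 genes passed with the pseudocount of 0.1 FPKM, with no filter, with median ratio scaling or with any library of week 12 left out, by limma. The causes were not tested. No paired analysis was possible because HFD and CD mice share no replicate numbers. FPKM carry no depth, so the precision of genes of few FPKM comes from the spread between mice, 4 per diet. In limma with trend, the spread of each gene is drawn toward that of genes of like level.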
